A study of Mus musculus with 6 samples.

Results

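Macrophages that present antigen to T cells also carry surface ligands that raise or restrain the T cell response. The 10 genes described here encode such ligands and related checkpoint molecules: Cd80, Cd86 and Icosl, the PD-1 ligand genes Cd274 and Pdcd1lg2, Cd40, Cd83, Havcr2, Lgals9 and Vsir. They were chosen by name, and all 10 of 10 were found by symbol among the 25044 genes of the deposited count table. All 10 passed the filter on low counts, which kept 11286 genes.

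The cells were peritoneal-derived macrophages of wild type C57BL/6 mice aged 8 weeks, collected 3 days after thioglycollate, which recruits monocyte-derived macrophages to the peritoneal cavity by irritation. Non-adherent cells were washed off after 1 h, and the rest stayed in culture for 24 h. The vehicle group (3 libraries) then received DMSO for 2 h and LPS at 100 ng/ml for 12 h. The trametinib group (3 libraries) received 100 nM trametinib, an inhibitor of the ERK-activating kinases MEK1 and MEK2, for 2 h and the same LPS. LPS is a bacterial ligand of the receptor TLR4, and every library had it, so the comparison concerns trametinib in LPS-treated cells and not the induction by LPS. The labels mention 3 mice and do not tie any library to an animal, so p-values reflect only variation among these libraries, which may be technical.

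As background, CD80 and CD86 are B7 family proteins that bind CD28, which costimulates T cells, and CTLA-4, which inhibits them. ICOSL binds ICOS, and PD-L1 (Cd274) and PD-L2 (Pdcd1lg2) bind the inhibitory receptor PD-1. CD40 is the receptor through which helper T cells stimulate antigen-presenting cells, and LPS and interferons are known to raise several of these molecules on macrophages.

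The libraries held 17453778 to 19648467 counts. All 12 macrophage markers were detected, with a summed level of 17810 to 20060 CPM (counts relative to the scaled library size) in vehicle and 16410 to 18120 CPM in trametinib libraries. Of these 12, 2 rose (Mertk and Cd14) and 3 fell (Msr1, Adgre1 and Itgam) with trametinib at an adjusted p of 0.05, against 15.8% and 18.4% of all genes. Msr1, a scavenger receptor gene, stood at 905, 964 and 363 CPM in vehicle replicates 1 to 3 and at 51.8 to 55.5 CPM with trametinib. Mean levels went from 1719 to 914.9 CPM for Adgre1, from 69.1 to 30.8 for Itgam, from 101.5 to 226 for Mertk and from 658 to 784 for Cd14. The Itgam and Cd14 calls were lost in 7 and 4 of 12 alternative settings, and what part these shifts have in the results below was not tested. All 8 B cell markers in the table lay under 1 CPM in every library, with a summed level of at most 0.946 CPM. Of 10 dendritic cell markers 7, Zbtb46, Flt3 and Clec9a among them, stayed under 1 CPM throughout. The other 3 were Bst2 at 808 to 1117 CPM, Ccr7 at 0.673 to 22.5 and Xcr1 at 0.702 to 2.58, and the list summed to 817 to 999.6 CPM with vehicle and 960.2 to 1132 CPM with trametinib. Dusp6, an ERK-induced phosphatase gene that reports on MEK activity, stood at 14.5, 17.1 and 2.11 CPM in vehicle replicates 1 to 3, and at 0 to 0.0557 CPM with trametinib. Vehicle replicate 3 was therefore low in this gene among the vehicle libraries. Results of the 10 genes that rest on that library are given with and without it, and those of some other genes with it only.

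With trametinib, 3 of the 10 genes rose (Cd86, Cd274 and Pdcd1lg2), 2 fell (Cd80 and Havcr2) and 5 did not pass an adjusted p of 0.05. In bulk samples such as these, fewer cells of a type and less RNA per cell cannot be told apart. Among all genes tested 34.3% passed, 15.8% higher and 18.4% lower. The median log2 fold change of the 10 genes was −0.01, and that of all genes tested −0.01. The vehicle and trametinib libraries did not overlap in 5 of the 10 genes, against 49.3% of all genes. The number of risers was 1, Cd86, without vehicle replicate 2, trametinib replicate 1 or trametinib replicate 2. The number that fell was 1, Cd80, without any single library other than vehicle replicate 3, and 3 without vehicle replicate 3. Among all genes, leaving out vehicle replicate 1, 2 or 3 left 9.89%, 10.2% and 19.3% higher and 12.3%, 12.8% and 21.4% lower. Leaving out trametinib replicate 1, 2 or 3 left 9.33%, 10.5% and 14.6% higher and 11.9%, 12.7% and 17.1% lower.

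**Figure D1:**
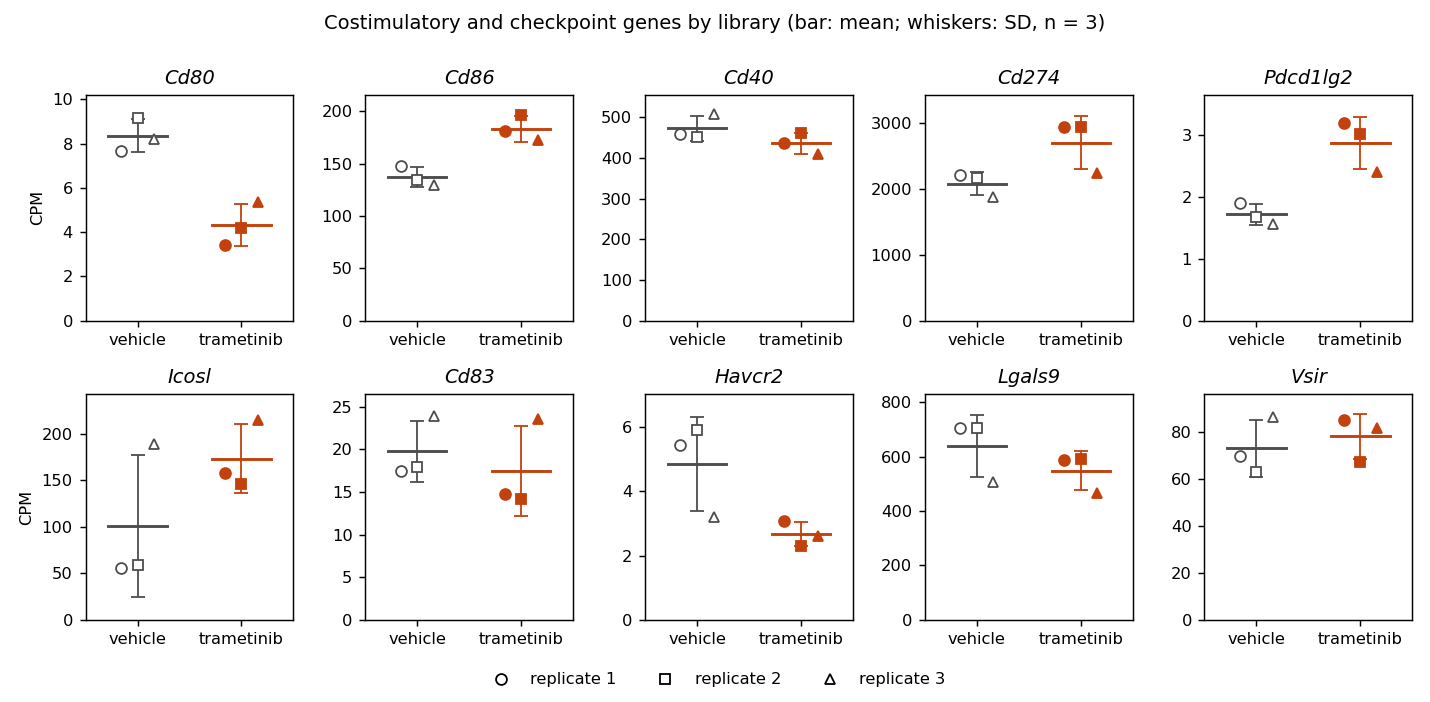
Level of each gene in CPM (vertical axes, from 0) in the 3 vehicle libraries (open symbols) and 3 trametinib libraries (filled symbols), with the mean and SD, and the symbol shape giving the replicate number. The groups are separate for Cd80, Cd86, Cd274, Pdcd1lg2 and Havcr2, and for Icosl vehicle replicate 3, at 190 CPM, lies among the trametinib libraries.

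The 250 bases before the transcription start are shown for the genes that changed and had an entry in the RefSeq promoter table (build GRCm38.p6, the assembly also called mm10; 7 of the 10 genes were found). They are printed so that genes that fell and genes that rose can be read side by side. Cd86, which rose, had no entry. The risers shown are thus Cd274 and Pdcd1lg2, whose calls were lost without some single libraries. The windows are chr16:38458683-38458932 for Cd80, chr11:46454681-46454930 for Havcr2, chr19:29367188-29367437 for Cd274 and chr19:29410669-29410918 for Pdcd1lg2, all on the plus strand. Capitals mark matches to 1 of 5 motifs searched on both strands. TGANTCA is a loose form of the AP-1 site, with any base at the centre, which is usually C or G. TTCNNNGAA is bound by STAT factors and CCGGAAG by ETS factors. The interferon-stimulated response element and the NF-kB consensus were also searched. The motifs were chosen after the sequences were seen.
Cd80: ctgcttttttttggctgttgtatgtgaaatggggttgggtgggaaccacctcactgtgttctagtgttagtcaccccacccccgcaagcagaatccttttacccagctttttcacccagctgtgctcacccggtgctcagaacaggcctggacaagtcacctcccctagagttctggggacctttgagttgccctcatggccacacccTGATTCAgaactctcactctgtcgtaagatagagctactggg
Havcr2: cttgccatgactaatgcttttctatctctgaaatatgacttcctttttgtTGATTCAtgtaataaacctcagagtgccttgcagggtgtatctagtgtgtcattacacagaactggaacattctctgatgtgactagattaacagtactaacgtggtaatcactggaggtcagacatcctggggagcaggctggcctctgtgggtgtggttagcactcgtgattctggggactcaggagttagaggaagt
Cd274: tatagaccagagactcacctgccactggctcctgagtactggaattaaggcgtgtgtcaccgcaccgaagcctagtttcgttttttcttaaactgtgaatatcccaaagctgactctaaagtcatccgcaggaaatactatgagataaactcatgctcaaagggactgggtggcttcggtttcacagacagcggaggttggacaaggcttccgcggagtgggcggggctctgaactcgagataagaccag
Pdcd1lg2: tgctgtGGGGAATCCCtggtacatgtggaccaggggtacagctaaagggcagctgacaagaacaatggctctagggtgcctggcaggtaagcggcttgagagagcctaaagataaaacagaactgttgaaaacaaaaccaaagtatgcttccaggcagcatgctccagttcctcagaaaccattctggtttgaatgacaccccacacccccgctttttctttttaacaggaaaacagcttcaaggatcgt

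TGANTCA was found once in Cd80, from 42 to 36 bases before the start, and once in Havcr2, from 200 to 194 bases before it. Both matches read TGATTCA, with T at the open centre base, so neither is the usual AP-1 site. The loose motif stood in 6.75% of 32851 promoter windows of the same length. The Pdcd1lg2 window held an NF-kB match from 244 to 235 bases before the start, a motif present in 7.25% of windows. None of the 5 motifs matched in the Cd274 window. These matches describe letters, and whether any factor bound there was not measured. The GENCODE gene model of Cd80 begins 3372 bases before the RefSeq start used here, so its window lies inside that model.

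The CD28 ligands moved in opposite directions. Cd80 (ENSMUSG00000075122, mm10 chromosome 16, 38455561 to 38496335) stood at 7.68, 9.15 and 8.21 CPM in vehicle replicates 1 to 3 and at 3.43, 4.19 and 5.34 CPM in trametinib replicates 1 to 3. Every trametinib library was below every vehicle library. Cd80 fell, with a log2 fold change of −0.95 (SE 0.17, adjusted p 0.00335), on 137 to 164 counts per vehicle library and 58 to 96 per trametinib library. Its adjusted p spanned 0.000145 to 0.0189 over 12 alternative settings.

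Cd86 (ENSMUSG00000022901, mm10 chromosome 16, 36603869 to 36666081), on the same chromosome, was measured at 148, 134 and 129 CPM with vehicle and at 181, 196 and 172 CPM with trametinib. The groups again did not overlap, with the lowest trametinib library above the highest vehicle library. Cd86 rose 1.33-fold (log2 fold change 0.42, SE 0.08, adjusted p 0.00578), with adjusted p values of 0.000181 to 0.0272 over the alternatives. Both changes passed without any single library.

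The ratio of Cd80 to Cd86 was computed within each library from CPM per kilobase of exon, and so does not depend on library scaling. Cd80 stood at 5.12%, 6.73% and 6.28% of the Cd86 level in the vehicle libraries and at 1.88%, 2.11% and 3.07% in the trametinib libraries. The log2 ratio was −4.06 ± 0.20 with vehicle and −5.44 ± 0.37 with trametinib (SD, n = 3), a 2.61-fold lower ratio (exact permutation test, two-sided, p = 0.10, the smallest that 3 against 3 allows). All 3 trametinib ratios were below all 3 vehicle ratios.

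Icosl, the gene of the ICOS ligand (ENSMUSG00000000732, mm10 chromosome 10, 78069302 to 78083913), had 1 vehicle library far from the others. It stood at 55.6 and 59.2 CPM in vehicle replicates 1 and 2, at 190 CPM in vehicle replicate 3, and at 159, 146 and 215 CPM in the trametinib libraries. Vehicle replicate 3 lay inside the range of the trametinib libraries and 3.31 times above the mean of the other vehicle libraries. Across all 6 libraries the log2 fold change was 0.77 (SE 0.57, 95% interval −0.72 to 2.26, adjusted p 0.357). Without vehicle replicate 3 it was 1.59 (adjusted p 0.00103). The alternatives spanned adjusted p values of 0.00103 to 0.620. Without vehicle replicate 1 it was 0.48 and without vehicle replicate 2 it was 0.50, neither past the threshold. Dusp6 was low in the same vehicle library, and the part of that library's state in the Icosl value was not tested.

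Both PD-1 ligand genes rose, from very different levels. Cd274 (ENSMUSG00000016496, mm10 chromosome 19, 29367455 to 29388095) had the highest level of the 10 genes, at 2208, 2164 and 1878 CPM with vehicle and 2945, 2935 and 2238 CPM with trametinib. The groups did not overlap, although trametinib replicate 3 exceeded the highest vehicle library by little. Cd274 rose 1.30-fold (log2 fold change 0.38, SE 0.12, adjusted p 0.0370). Leaving out vehicle replicate 1, 2 or 3 gave adjusted p values of 0.0648, 0.0786 and 0.0649, and leaving out trametinib replicate 1 or 2 gave 0.147 and 0.135. The span over the alternatives was 0.00254, with the replicate number as a block, to 0.147.

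Pdcd1lg2 (ENSMUSG00000016498, mm10 chromosome 19, 29410919 to 29471161) lies next to Cd274 and was nearly silent beside it. It stood at 1.91, 1.67 and 1.57 CPM with vehicle, from 29 to 34 counts per library, and at 3.19, 3.01 and 2.39 CPM with trametinib, from 43 to 56 counts. The groups did not overlap, and Pdcd1lg2 rose 1.67-fold (log2 fold change 0.74, SE 0.20, adjusted p 0.0212). Leaving out vehicle replicate 2, trametinib replicate 1 or trametinib replicate 2 ended the call, with adjusted p values of 0.0672, 0.0878 and 0.0672 in a span of 0.0164 to 0.0878.

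Per kilobase of exon, Pdcd1lg2 stood at 0.159%, 0.143% and 0.154% of the Cd274 level with vehicle and at 0.200%, 0.189% and 0.198% with trametinib. The log2 ratio rose from −9.36 ± 0.08 to −9.00 ± 0.04 (SD, n = 3), a 1.29-fold difference (exact permutation test, two-sided, p = 0.10, the smallest possible). The 3 trametinib ratios all lay above the 3 vehicle ratios. An antisense gene, AC119228.1, covers 14.1% of the exonic bases of Cd274 on the other strand and was not analysed here. A930007I19Rik, named after its values were seen, overlaps the Pdcd1lg2 locus on the opposite strand without sharing exonic bases. It rose 1.77-fold, from 11.2 ± 0.733 to 19.8 ± 1.73 CPM (SD, n = 3, adjusted p 0.000648). The strand setting of the counting is not given in the sources used here.

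CD40 and CD83 mark activated antigen-presenting cells, and neither passed. Cd40 (ENSMUSG00000017652, mm10 chromosome 2, 165055627 to 165072948) stood at 459, 452 and 509 CPM with vehicle and 436, 460 and 410 CPM with trametinib, and the groups overlapped. Its log2 fold change was −0.12 (SE 0.08, 95% interval −0.31 to 0.07, adjusted p 0.295), and −0.064 without vehicle replicate 3. Cd83 (ENSMUSG00000015396, mm10 chromosome 13, 43784775 to 43803132) encodes a membrane protein that protects CD86 and class II histocompatibility molecules from MARCH1-driven degradation. It stood at 17.4, 17.9 and 23.9 CPM with vehicle and 14.8, 14.1 and 23.6 CPM with trametinib. Replicate 3 was the highest library of each group, and the log2 fold change was −0.17 (SE 0.23, 95% interval −0.71 to 0.36, adjusted p 0.584). It was −0.014 without vehicle replicate 3 and −0.45 without trametinib replicate 3 (adjusted p 0.969 and 0.0577).

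Havcr2, the gene of the inhibitory receptor TIM-3 (ENSMUSG00000020399, mm10 chromosome 11, 46454935 to 46481255), fell. It stood at 5.44, 5.91 and 3.19 CPM with vehicle and 3.07, 2.31 and 2.62 CPM with trametinib. Vehicle replicate 3 was close to trametinib replicate 1, and the groups did not overlap. The log2 fold change was −0.86 (SE 0.25, adjusted p 0.0262). The call was lost without any single library except vehicle replicate 3: leaving out vehicle replicate 1 or 2 gave adjusted p values of 0.0882 and 0.0943, and leaving out trametinib replicate 1, 2 or 3 gave 0.0533, 0.0963 and 0.0682. Without vehicle replicate 3 the log2 fold change was −1.09 (adjusted p 0.000807), and the alternatives spanned 0.000807 to 0.0963.

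Lgals9 encodes galectin-9, a sugar-binding protein described as a TIM-3 ligand (ENSMUSG00000001123, mm10 chromosome 11, 78962974 to 78984946). It stood at 706, 703 and 506 CPM with vehicle and 589, 590 and 467 CPM with trametinib. Replicate 3 was the lowest of each group, and the groups overlapped. The log2 fold change was −0.22 (SE 0.15, adjusted p 0.294). Lgals9 was lower with trametinib in 3 of 3 pairs of equal replicate number, a pairing that the labels do not state. Among the other members that did not pass, Cd83 was also lower in 3 of 3 pairs and Icosl higher in 3 of 3. The share of all genes that did so was not counted. The block fit left Cd83 at an adjusted p of 0.125 and Icosl at 0.122. In that fit Lgals9 had a log2 fold change of −0.21 and an adjusted p of 0.0214. Without vehicle replicate 3 it was −0.36 (adjusted p 0.0191), and the alternatives spanned 0.0191 to 0.594.

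Vsir, the gene of the inhibitory B7-related protein VISTA (ENSMUSG00000020101, mm10 chromosome 10, 60346851 to 60372684), lies within the span of Cdh23 on the opposite strand, with no exonic bases shared. It stood at 69.8, 63.1 and 86.6 CPM with vehicle and 85.3, 67.3 and 81.9 CPM with trametinib. The groups overlapped fully, and the log2 fold change was 0.10 (SE 0.13, 95% interval −0.22 to 0.41, adjusted p 0.617). Its sign turned without vehicle replicate 2 (−0.0020, adjusted p 0.993).

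**Figure D2:**
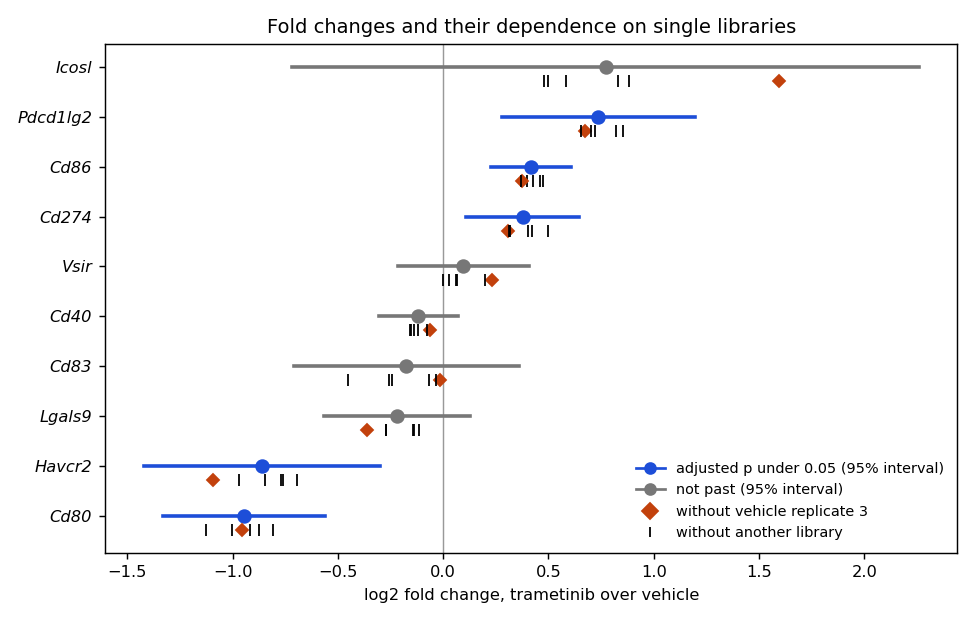
Log2 fold change of each gene, trametinib over vehicle (horizontal axis), with its 95% interval from the edgeR fit (circles and bars, blue where the adjusted p was under 0.05), and the value when each library was left out (ticks, with a diamond for vehicle replicate 3). Icosl moves from 0.77 to 1.59 without vehicle replicate 3, while the values of Cd80 stay between −1.13 and −0.81.

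The genes also differed widely in level, which was compared per kilobase of exon. In the vehicle libraries Cd274 led with 575 ± 49.4 CPM per kilobase (SD, n = 3), before Lgals9 with 299 ± 53.8 and Cd40 with 139 ± 9.07. These 3 genes did not overlap with each other or with the genes below them. Cd86 (37.5 ± 2.69), Icosl (22.0 ± 16.5) and Vsir (14.6 ± 2.41) followed, and Icosl overlapped with both of its neighbours. Cd83 stood alone at 7.68 ± 1.41, above the group of Cd80 (2.25 ± 0.201) and Havcr2 (1.78 ± 0.535), which overlapped. Pdcd1lg2 was last at 0.875 ± 0.0886 CPM per kilobase.

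With trametinib the order of the upper 7 genes was the same, and Cd86 to Icosl, at 50.01 ± 3.30 and 37.5 ± 8.02 CPM per kilobase, no longer overlapped. Among the lower 3, Pdcd1lg2 (1.46 ± 0.213) stood first, then Cd80 (1.17 ± 0.260) and Havcr2 (0.980 ± 0.141), each overlapping with its neighbour. Cd274 made up 51.3% to 52.9% of the summed level per kilobase of the 10 genes in the vehicle libraries and 57.2% to 61.3% in the trametinib libraries. Lgals9 made up 23.4% to 29.0% and 20.3% to 20.8%. Cd274, which encodes an inhibitory ligand, was the most abundant of the 10 per kilobase in each library.

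**Figure D3:**
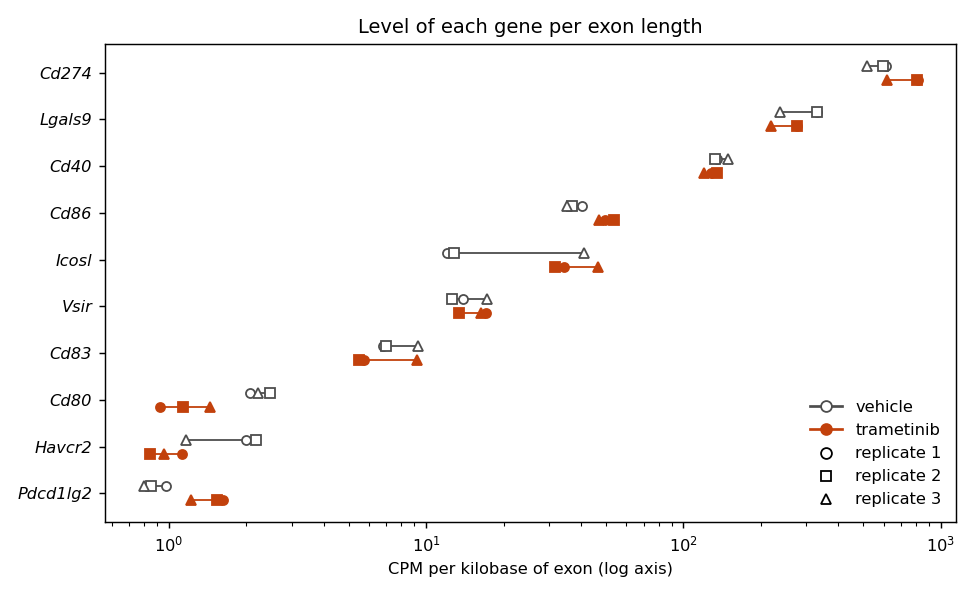
Level of each gene in CPM per kilobase of exon (horizontal log axis) in every library, with lines joining the lowest and highest library of a group (vehicle open, trametinib filled). Cd274 lies above 500 in every library, while Cd80, Havcr2 and Pdcd1lg2 lie under 3.

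The members' profiles over the 6 libraries were compared with those of other genes by Pearson's r of log2(CPM + 0.5), as a description only, since the 6 points include the group difference and each profile was searched against the tested genes of mean at least 5 CPM. Cd80 was most like Bnip1 (r = 0.996), a SNARE protein gene. Cd86 was most like Vipas39 (r = 0.997), of vesicle sorting, and Kansl1l (r = 0.995). Cd274 was most like the zinc finger gene Plagl2 and the kinase gene Tlk2 (both r = 0.998). Pdcd1lg2 was most like Sfn (r = 0.998) and Trafd1 (r = 0.997), and Havcr2 most like Dele1 (r = 0.997) and the proteasome subunit gene Psmd3 (r = 0.996). Of these genes, Plagl2, Tlk2 and Dele1 did not themselves pass in the edgeR fit (adjusted p 0.1605, 0.0519 and 0.168), and the others did.

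Seen through 7 lists of related genes, 28 of 84 genes tested rose (33.3%, against 15.8% of all genes) and 10 fell (11.9%, against 18.4%). These counts moved with single libraries. Leaving out vehicle replicate 1 or 2 or trametinib replicate 1 or 2 left 16, 16, 13 and 15 list genes higher and 5, 6, 5 and 6 lower. Of all genes, 9.89%, 10.2%, 9.33% and 10.5% were then higher and 12.3%, 12.8%, 11.9% and 12.7% lower. Without trametinib replicate 3, 6 list genes were lower, against 17.1% of all genes. The shares of all genes for each omitted library, given with the members above, also apply to the lists below. With the replicate block 41 were higher and 16 lower, against 20.5% and 22.4% of all genes. The lists are described below by their counts and their median log2 fold change, beside −0.01 for all genes tested. Relb, Birc3 and Cd200 stand in 2 lists each. They are counted once among the 84 and again in each of their lists.

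**Figure D4:**
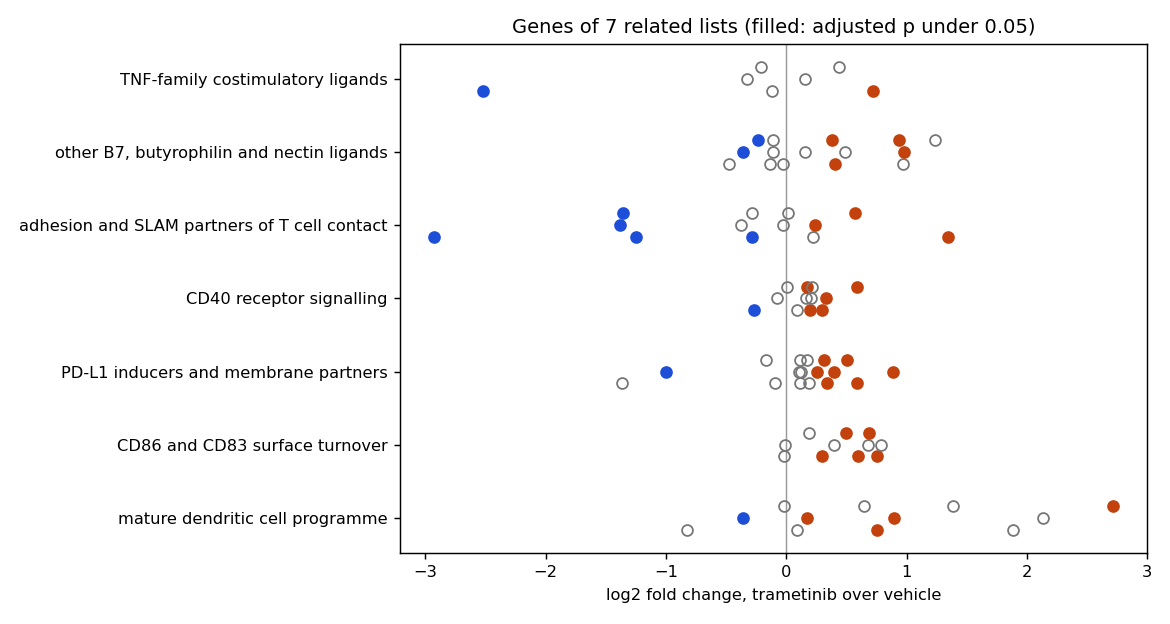
Log2 fold change, trametinib over vehicle (horizontal axis), of each tested gene in 7 lists of related genes (rows), filled where the adjusted p was under 0.05 (red higher, blue lower) and open where it was not. Tnfsf9 at −2.52 and Slamf9 at −2.93 are the lowest values and Socs2 at 2.72 the highest.

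Of the costimulatory ligands of the TNF family, 7 of 10 were tested, 1 rose, 1 fell and 5 did not pass (median −0.12). Tnfsf9, the gene of the ligand of 4-1BB, stood at 35.2, 31.2 and 17.8 CPM with vehicle and 5.02, 4.62 and 5.01 CPM with trametinib. It fell, with a log2 fold change of −2.52 (SE 0.27, adjusted p 0.000871) and vehicle replicate 3 the lowest vehicle library and still above every trametinib library. Its receptor gene Tnfrsf9 rose from 4.54 ± 0.614 to 7.41 ± 0.242 CPM (adjusted p 0.00454). Tnfsf4, the OX40 ligand gene, stood at 1.05 ± 0.0910 and 1.73 ± 0.238 CPM (log2 fold change 0.72, adjusted p 0.0415). Its call was lost over all 6 libraries by DESeq2 (adjusted p 0.136) and with no filter on low counts (0.0772), and without any single library other than vehicle replicate 3 (span of adjusted p 0.0376 to 0.136). The list had no riser by DESeq2, which called 15.0% of all genes higher, or without any of those single libraries. It had 2 risers without vehicle replicate 3 and 3 genes that fell with the replicate block.

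A list of other B7, butyrophilin and nectin ligands, with further genes such as Fgl2 and Cd47, had 4 risers and 2 that fell among 15 tested (median 0.15). Its butyrophilin genes Btn1a1 and Btn2a2 were too low to be tested. The B7 gene Cd276, named after its values were seen, did not pass (adjusted p 0.0571). Fgl2, a membrane-bound or secreted fibrinogen-like immunoregulator, rose from 552 ± 26.1 to 1086 ± 86.5 CPM (adjusted p 0.000220). Nectin2, whose product binds the T cell receptors TIGIT and CD226, rose from 24.9 ± 1.97 to 47.8 ± 2.79 CPM (adjusted p 0.000268). Cd47, the "do not eat me" signal, rose from 466 ± 5.58 to 616 ± 42.3 CPM (adjusted p 0.00447). The block fit had 7 risers. Omitting vehicle replicate 1 or 2 or trametinib replicate 1 or 3 left none lower, and 1 fell without trametinib replicate 2.

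Genes of adhesion and the SLAM family, whose products hold cells together at T cell contacts, split with 3 higher and 5 lower among 13 (median −0.28). Itgal, the gene of the LFA-1 alpha chain, fell from 1114 ± 13.8 to 435 ± 40.8 CPM, with an adjusted p of 9.79e-05 and a log2 fold change of −1.36. Slamf6 fell from 16.6 ± 2.83 to 6.98 ± 0.943 CPM (adjusted p 0.000683). Slamf9 stood at 168, 154 and 74.7 CPM with vehicle and 16.3 to 18.4 CPM with trametinib, a log2 fold change of −2.93 (SE 0.34, adjusted p 0.00240). On omitting replicate 1 or 2 of either group the list had 1 riser and 3 that fell, and without trametinib replicate 3 it also had 3 that fell.

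In CD40 receptor signalling 5 of 12 rose and 1 fell (median 0.19). The adaptor gene Traf5 rose from 27.1 ± 3.03 to 40.7 ± 2.80 CPM (adjusted p 0.00243) and Traf1 from 321 ± 37.5 to 403 ± 5.43 CPM (adjusted p 0.0251). Nfkb2, the gene of the NF-kB subunit that CD40 processes, fell from 521 ± 28.2 to 432 ± 22.4 CPM (adjusted p 0.0285). The Traf1 call was lost without any single library other than vehicle replicate 3 (range of adjusted p over the alternatives 0.00143 to 0.104). That of Nfkb2 was lost without vehicle replicate 1 and trametinib replicates 1 and 2 (range 0.00617 to 0.113), and the list then had none that fell. The list had 1 riser on omitting replicate 1 or 2 of either group, and 3 without trametinib replicate 3.

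Of a list of genes tied to PD-L1, most of them inducers or membrane partners, 7 of 17 rose and 1 fell (median 0.17). The count and median also cover Gsk3b, Spop, Csnk2a1 and B3gnt3, which are neither, and none of these passed. Ifngr1, the ligand-binding chain of the interferon gamma receptor, fell from 64.4 ± 6.95 to 32.2 ± 1.89 CPM (adjusted p 0.000280). Hif1a, a hypoxia-inducible factor gene, rose from 203 ± 27.5 to 375 ± 13.7 CPM (adjusted p 0.000535), and Stat3 from 314 ± 11.9 to 471 ± 45.0 CPM (adjusted p 0.00166). Irf1, a transcription factor of the interferon response, and Cmtm6, whose product stabilises PD-L1, were named after their values were seen. They rose from 591 ± 41.1 to 840 ± 86.1 CPM (adjusted p 0.00427) and from 164 ± 8.83 to 208 ± 18.6 CPM (adjusted p 0.0180). The Cmtm6 call was lost when replicate 1 of either group or trametinib replicate 2 was omitted (range 0.00319 to 0.0591). The list had 4 risers without vehicle replicate 1, 3 when trametinib replicate 1 was omitted and 4 when trametinib replicate 2 was, and 2 that fell without vehicle replicate 3 or with the block.

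Genes tied to CD86 and CD83 turnover at the surface, most of them of class II presentation, had 5 risers of 11 tested (median 0.50). None fell in the edgeR fit, 0 at an unadjusted p under 0.05, and 0 by DESeq2 or limma-voom, which called 16.2% and 18.1% of all genes lower. H2-DMa and H2-DMb1, which load peptides onto class II molecules, rose from 82.6 ± 17.4 to 133 ± 8.76 CPM (adjusted p 0.00811) and from 119.5 ± 29.7 to 202 ± 5.85 CPM (adjusted p 0.00925). Cd74, the invariant chain, rose from 1480 ± 313 to 2088 ± 51.4 CPM (adjusted p 0.0227), a call lost without any single library other than vehicle replicate 3 (range 4.11e-05 to 0.0804). March1, the ubiquitin ligase gene that acts on CD86, had an adjusted p of 0.202 at a log2 fold change of 0.19, and passed with the replicate block (0.0436). The list had 8 risers with the block or without vehicle replicate 3, and 2 without any other single library.

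Of the mature dendritic cell programme, 4 of 12 tested rose and 1 fell (median 0.70). Socs2, a cytokine signalling suppressor, rose from 0.643 ± 0.128 to 4.27 ± 1.238 CPM, with an adjusted p of 0.000426 and a log2 fold change of 2.72. Il15 rose from 119 ± 4.99 to 222 ± 34.0 CPM (adjusted p 0.000732) and its receptor chain Il15ra from 158 ± 4.75 to 267 ± 35.8 CPM (adjusted p 0.00108). With the block 8 genes rose, and 7 rose and 2 fell without vehicle replicate 3, while none fell without any other single library.

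Of 10 T cell receptor and partner genes, some for the members and others, such as Tnfrsf9, for other ligands, 6 stayed under 1 CPM throughout. Ctla4, Cd40lg and Tigit had no count in any library, and Icos and Pdcd1 were among the other 3. Besides Tnfrsf9, given above, Lag3 stood at 7.29 to 8.69 CPM with vehicle and 7.68 to 10.2 CPM with trametinib (adjusted p 0.377), and Tnfrsf4 at 0.336 to 1.005 CPM. Cd28 was at 6.17, 6.19 and 9.18 CPM with vehicle and 13.5, 10.6 and 15.5 CPM with trametinib. Every trametinib library was above every vehicle library, and Cd28 rose 1.83-fold (log2 fold change 0.87, SE 0.20, adjusted p 0.0102). The T cell antigen receptor genes Cd3e, Cd3d and Cd3g were under 1 CPM in all libraries, as were 10 of the 13 T and NK cell markers. The other 3 were Cd4 at 10.5 to 25.4 CPM, Cd247 at 1.45 to 7.67 and Lck at 1.99 to 2.86, none past the threshold. The T and NK list summed to 19.3 to 21.1 CPM with vehicle and 22.0 to 31.3 CPM with trametinib, and its part in the Cd28 result was not tested.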

How the data were processed

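RNA was sequenced from ribosomal-RNA-depleted libraries of 6 macrophage cultures, 3 per group as the labels give them. The authors deposited raw counts of reads per gene, without normalization. Per the submitters' processing notes, reads were aligned to mm10 in a workflow that names HISAT2 (2.1.0), R (3.6.0), DESeq2 (1.24.0) and featureCounts (1.6.4). Not given in the sources used here are the gene annotation, whether counting used strand, and how multi-mapped reads were handled.

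Of 25354 rows, 310 repeats of 205 identifiers held identical values and were dropped, and symbols, positions and exon lengths came from GENCODE mouse release M21, which held 25033 of the 25044 identifiers. Genes were filtered with filterByExpr and scaled by TMM. The groups were compared with edgeR 4.0.16 (quasi-likelihood test, robust, group the sole term), with Benjamini-Hochberg adjustment over all 11286 genes tested. Standard errors come from the F statistic (size of the log2 fold change over its root), CPM use TMM-scaled library sizes, and levels per kilobase use the merged exons of a gene.

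On simulated data with 11190 genes the fit found 29 of 50 genes set to a 1.5-fold change and 44 of 50 set to 2-fold. It found 45 of 49 set to 4-fold and 50 of 50 set to 8-fold, with 16 false calls among the 10991 genes left unchanged. The simulation changed a far smaller share of genes than the 34.3% that passed in the data, and drew libraries without pairing. Its false calls therefore do not give the error rate in the data. Deviations from the group means correlated at 0.346, 0.418 and 0.307 between libraries of equal replicate number and at −0.258 to −0.0754 between others. Such deviations cancel within a group, so positive correlations at equal numbers in part force negative ones elsewhere. The numbers were taken as a possible pairing, which the labels do not state. The main edgeR fit and the permutation tests treated the libraries as unpaired. The block with these numbers was an alternative, beside DESeq2 size factors in edgeR, no filter, a filter of 1 CPM in 3 libraries, DESeq2 1.42.0, limma-voom (limma 3.58.1) and leaving out each library. The ratios were compared by an exact permutation test. The members and lists were chosen with earlier results of these data known, so no count over them is independent evidence. Named genes are all 10 members, up to 3 genes past the threshold with the smallest p from each of 7 lists, and the 2 genes of mean at least 5 CPM most like each changed member, of which 1 is not reported here. Others come from 9 marker lists or were named after their values were seen, as Dusp6 and March1 were. The marker lists include T cell receptors and partners of the members and of other ligands. Of the marker lists not summed in the results, those for resident macrophages, neutrophils, mast cells and eosinophils, and fibroblasts and mesothelium summed to at most 5.61, 21.2, 8.97 and 3.06 CPM. Scripts ran in Python 3.11.15 (pandas 2.3.3, matplotlib 3.10.9, NumPy 2.4.6) and R 4.3.3.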

Additional observations from a re-analysis of the deposited data

How the results depend on the processing

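Of 120 values of the 10 members under the 12 alternatives, 103 kept their direction and their side of the threshold. Another 13 lost the threshold, all when a single library was left out, 3 gained it, and Vsir turned sign (−0.0020 without vehicle replicate 2). With the replicate block Lgals9 passed at −0.21, and 16 list genes fell; the block changed no other member's call. When each library was left out, 1068 to 2210 genes rose and 1360 to 2453 fell, with 1 to 3 members in each direction, and 13 to 37 list genes rose and 5 to 14 fell. Log2 fold changes then ran from 0.31 to 0.50 for Cd274, 0.66 to 0.85 for Pdcd1lg2, 0.48 to 1.59 for Icosl, −0.45 to −0.014 for Cd83, −0.156 to −0.064 for Cd40, −1.09 to −0.69 for Havcr2, −0.36 to −0.115 for Lgals9 and −0.0020 to 0.23 for Vsir. Fewer samples were fitted in these settings. Leaving out libraries for the ratios was chosen after seeing the data: Cd80 over Cd86 differed by −1.59 to −1.24 and Pdcd1lg2 over Cd274 by 0.32 to 0.40 on the log2 scale. Depth limits Pdcd1lg2, Havcr2 and Cd80 most, with 29 to 164 counts per library.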

Other observations

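Icosl was not alone in standing high in vehicle replicate 3. Ccr7, the homing receptor of mature dendritic cells, was at 0.673, 2.12 and 7.07 CPM in vehicle replicates 1 to 3 and at 10.8, 10.3 and 22.5 CPM in trametinib replicates 1 to 3. Fscn1, the actin-bundling protein gene fascin, was at 6.00, 6.08 and 15.7 CPM with vehicle and 19.4, 17.7 and 35.6 CPM with trametinib. For both genes, replicate 3 was the highest library in each group and every trametinib library was above every vehicle library. Neither passed over all 6 libraries by edgeR (adjusted p 0.0995 and 0.0938), Fscn1 passed by DESeq2 (0.0410), and both passed with the replicate block (0.0165 and 0.000504) and without vehicle replicate 3 (0.0304 and 0.0236). Both genes, and those that follow, were named here after their values were seen. Of the mature dendritic cell list, Cacnb3 had the same pattern (adjusted p 0.0894). Il12b was also highest in vehicle replicate 3, at 81.6, 66.5 and 151 CPM with vehicle, but was lower with trametinib, at 47.2, 59.0 and 62.5 CPM (adjusted p 0.123). Ccl22 and Tmem123 were highest in replicate 3 of each group, and their groups overlapped (adjusted p 0.516 and 0.956). Outside that list, Ciita was at 79.4, 73.2 and 158 CPM with vehicle and 175, 166 and 196 CPM with trametinib (adjusted p 0.109). The class II genes H2-Eb1, H2-Aa, H2-Ab1, H2-DMa, H2-DMb1 and Cd74 were also highest among vehicle libraries in replicate 3. In trametinib replicate 3, H2-DMa and H2-DMb1 were lowest. March1, March8 and Spi1, of the turnover list as well, were lowest in vehicle replicate 3.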
